A study of Mus musculus with 6 samples.

Results

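The aldehyde dehydrogenase genes described here, in mouse hepatocytes, are Aldh1a1, Aldh1a7, Aldh1b1, Aldh1l1, Aldh2, Aldh3a2, Aldh4a1, Aldh6a1, Aldh8a1 and Aldh9a1. They were chosen by gene symbol, with their values in the comparison below already known, and all 10 were found among the 17275 gene symbols counted and passed the filter on low counts. The study sorted hepatocytes from C57BL/6 mice of genotype Axin2rtTA;TetO-H2B-GFP, in which the Axin2 promoter drives a doxycycline-dependent activator (rtTA) that switches on a green fluorescent histone. All the mice had taken doxycycline in their water for 7 days, and the labels give an age of 8 weeks in one field and of postnatal day 63 in another. After non-parenchymal cells had been removed, hepatocytes with the fluorescent label (Axin2-positive) and without it (Axin2-negative) were collected, so both groups carry both alleles and received the drug. Each group has 3 RNA-seq libraries, here numbered 1, 2 and 3 by a sequencing index that occurs once per group. The labels do not say whether libraries of 1 group came from separate mice, or whether mice were pooled, so the spread between libraries may in part be technical.

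Aldehyde dehydrogenases use NAD or NADP to oxidise reactive aldehydes to carboxylic acids, and the liver holds them in the cytosol, the mitochondria and the endoplasmic reticulum. Some clear aldehydes that come from alcohol and lipid peroxidation, and others are steps in the breakdown of amino acids or in folate, carnitine and retinoid metabolism. Hepatocytes near the central vein receive Wnt signals, of which Axin2 is a target, and hepatocytes near the portal vein carry a different set of metabolic enzymes.

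The Axin2-positive-labelled libraries held 77994792 to 103386648 reads assigned to genes and the Axin2-negative-labelled ones 75882611 to 101814611 reads. The 10 hepatocyte markers summed to at least 115370 CPM (counts-per-million, with library totals scaled by the TMM method) in the Axin2-positive-labelled libraries and to at least 108107 CPM in the Axin2-negative-labelled ones. Axin2 itself was at 2.40, 22.6 and 24.2 CPM in the Axin2-positive-labelled libraries 1, 2 and 3, against 3.04, 3.75 and 5.75 CPM in the Axin2-negative-labelled ones 1, 2 and 3. The gene used for the sort thus goes against the label in index 1, and the libraries of that index were nearly alike: the median over genes of the chi-square of their difference was 1.16, against 12.7 in index 2 and 9.33 in index 3, where counting error alone gives 0.455. The 11 pericentral genes listed as a check had a median log2 difference of -0.01, 2.57 and 2.07 in indexes 1, 2 and 3, and the 11 periportal genes one of -0.02, -3.92 and -2.41. Libraries of index 2 held 90.8 and 84.1 CPM of Ddx3y, a gene of the Y chromosome, against under 0.04 CPM elsewhere. Xist, the X-inactivation transcript, was at 508, 0.0507 and 606 CPM in the Axin2-positive-labelled libraries 1, 2 and 3. In the Axin2-negative-labelled ones it was at 494, 0.0622 and 368 CPM. Sex therefore cannot be told apart from what sets index 2 off from indexes 1 and 3, which share the same pattern of these 2 genes.

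With all 6 libraries in the fit, the quasi-likelihood test of edgeR (Benjamini-Hochberg adjusted p under 0.05 over 12343 genes) called 0 of the 10 aldehyde dehydrogenases higher and 0 lower. The share of all genes called was 0% in each direction, and 279 genes had an unadjusted p under 0.05. DESeq2 and limma-voom also called 0 genes, with 432 and 238 at an unadjusted p under 0.05. With the index as a block edgeR called 0% of all genes as well, and 1132 had an unadjusted p under 0.05. None of the 10 genes had groups that did not overlap, while 3.44% of all genes lay wholly higher and 3.77% wholly lower in the Axin2-positive-labelled libraries. The median log2 fold change was 0.022 over the 10 genes and -0.0047 over all genes tested. In indexes 2 and 3 alike, 4 of the 10 were higher and 4 lower in the Axin2-positive-labelled library, and the same held for 35.3% and 36.5% of all genes.

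A fit of indexes 2 and 3 alone, with the index as a block, rests on 1 residual degree of freedom. The choice to omit index 1 followed from how alike its libraries were, and the genes were picked with these values known, so its calls are a description and support nothing. This fit called Aldh1a1 and Aldh3a2 higher and Aldh1b1 lower, beside 3.43% of all genes called higher and 4.01% called lower (edgeR, adjusted p under 0.05). Tested against a fold of 1.5, Aldh1a1 was called higher and Aldh1b1 lower, beside 0.791% and 0.888% of all genes. In the authors' deposited table, Aldh1b1 was the only one of the 10 marked as changed (12.2 FPKM in the Axin2-positive group and 32.1 FPKM in the Axin2-negative group, q-value 0.0253), where 0.527% of transcripts were marked higher and 0.173% lower.

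**Figure D1:**
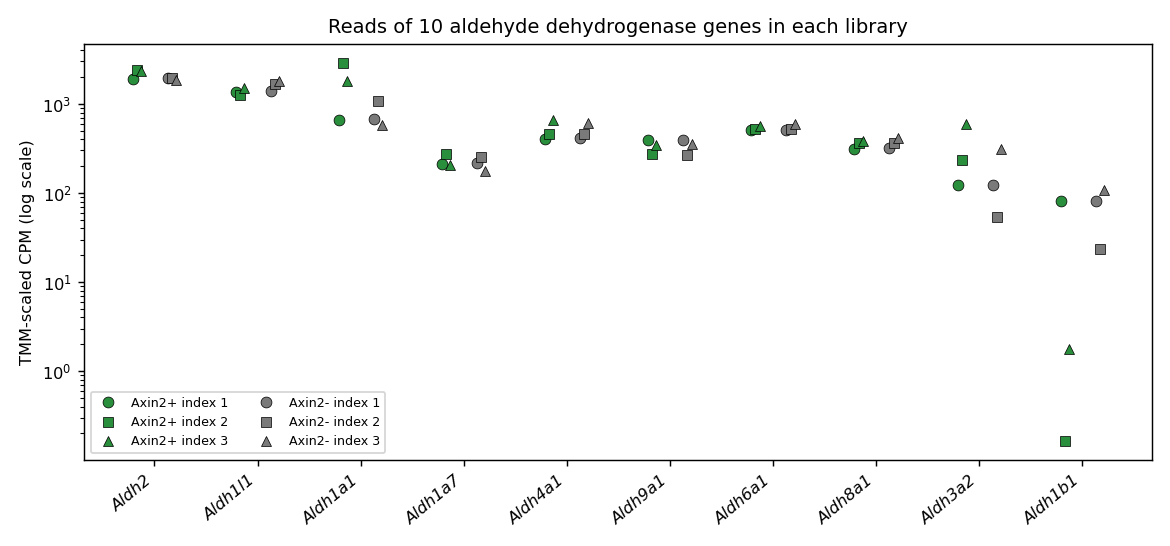
Reads of each gene in each library, as TMM-scaled CPM on a log axis, with Axin2-positive-labelled libraries in green on the left and the Axin2-negative-labelled ones in grey on the right, and 1 marker shape per index. Genes run from the highest to the lowest mean level per kilobase. Aldh1b1 stands at 0.165 and 1.76 CPM in the Axin2-positive-labelled libraries 2 and 3, and between 23.5 and 108 CPM in the other 4.

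Aldh1b1 (chromosome 4, 45799022 to 45804604, plus strand, GRCm38, GENCODE annotation) encodes a mitochondrial aldehyde dehydrogenase close to ALDH2 that can oxidise acetaldehyde and retinal. Its annotated transcript has 2 exons, and the coding sequence lies in 1 of them. It had 80.4, 0.165 and 1.76 CPM in the Axin2-positive-labelled libraries 1, 2 and 3, against 80.9, 23.5 and 108 CPM in the Axin2-negative-labelled ones 1, 2 and 3. The low values in the Axin2-positive-labelled libraries 2 and 3 rest on 13 and 151 reads, against 1887 and 9497 reads in their Axin2-negative partners. The groups overlap only through index 1, whose libraries held 7817 and 7741 reads.

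Within an index and with no offset, Aldh1b1 was 143-fold lower in the Axin2-positive-labelled library in index 2 and 61.7-fold lower in index 3. With an offset of 0.05 CPM the log2 differences were -6.78 and -5.91. The 95% interval for counting error (exact binomial, no offset) on the log2 difference ran from -8.07 to -6.38 in index 2 and from -6.19 to -5.71 in index 3. In index 1 it ran from -0.054 to 0.037. The fit of 6 libraries gave a log2 fold change of -1.37 (SE 1.82) by group only and -4.29 (SE 1.74) with the index as a block. By group only, it was -6.19 without the Axin2-positive-labelled library 1. Leaving out the Axin2-positive-labelled library 2 gave -0.79 and leaving out Axin2-positive 3 gave -0.81, so the size depends on which library is left out. In the fit of indexes 2 and 3 it was -6.23 (SE 0.24).

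The 250 bases before the annotated start of Aldh1b1 are printed because this gene had the largest difference of the 10. They come from the RefSeq promoter table for GRCm38.p6 (chr4:45798772-45799021, plus strand) and are in lower case throughout, as they hold none of the 4 motifs searched.
Aldh1b1: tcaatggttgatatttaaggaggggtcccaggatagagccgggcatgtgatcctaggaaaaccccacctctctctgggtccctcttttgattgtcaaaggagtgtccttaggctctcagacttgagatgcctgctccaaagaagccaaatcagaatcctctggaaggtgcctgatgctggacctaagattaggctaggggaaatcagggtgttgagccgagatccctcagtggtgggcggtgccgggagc
The motifs were searched on both strands in the 250 bases before the start. They were CTTTGAT (a core that TCF/LEF factors bind), CAAAGTCC (part of the HNF4A motif), ATGCAAAT (the octamer bound by POU factors) and CCAAT (the CCAAT box). Of 32851 promoter windows, 3.21% held CTTTGAT, 1.2% CAAAGTCC, 1.6% ATGCAAAT and 33.8% CCAAT. Windows were found for 9 of the 10 genes, and CTTTGAT was in 0 of those 9.

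Levels of markers of other cell types also differed between the libraries of indexes 2 and 3. Of 10 bile duct markers 9 were in the table and 4 passed the filter, with a summed level of 14.97 to 34.8 CPM in the Axin2-positive-labelled libraries and 22.7 to 35.5 CPM in the Axin2-negative-labelled ones. The duct keratin gene Krt19 had 7, 0 and 0 reads in the Axin2-positive-labelled libraries 1, 2 and 3, against 11, 0 and 1 reads in the Axin2-negative-labelled ones. Epcam had 1, 2 and 0 reads in the Axin2-positive-labelled libraries, against 4, 0 and 2 in the Axin2-negative-labelled ones. Sox9, which also marks some periportal hepatocytes, had 758, 5 and 4 reads in the Axin2-positive-labelled libraries, against 792, 134 and 81 in the Axin2-negative-labelled ones. Prom1, another listed gene, was higher in the Axin2-positive-labelled library of index 3, with 0.957, 0.0127 and 14.4 CPM in the Axin2-positive-labelled libraries, against 0.752, 0 and 5.23 CPM in the Axin2-negative-labelled ones. Krt19 and Epcam had at most 11 reads in any library. The part of duct cells in the Aldh1b1 difference was not tested.

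The 9 tested of 14 Kupffer cell markers summed, with the 4 untested ones in the table, to 1.36 to 5.86 CPM in the Axin2-positive-labelled libraries and 4.58 to 32.7 CPM in the Axin2-negative-labelled ones. Clec4f was the highest of them, at 1.05, 0.101 and 1.24 CPM in the Axin2-positive-labelled libraries against 0.909, 1.13 and 7.25 CPM in the Axin2-negative-labelled ones, followed by Cd5l (0.679, 0.0887 and 1.01 CPM in the Axin2-positive-labelled libraries against 0.638, 1.21 and 6.85 CPM in the Axin2-negative-labelled ones) and Cd68 (0.947, 0.887 and 1.06 CPM in the Axin2-positive-labelled libraries against 1.05, 1.34 and 1.35 CPM in the Axin2-negative-labelled ones). Endothelial markers summed to 3.31 to 70.0 CPM in the Axin2-positive-labelled libraries, against 8.25 to 97.9 CPM in the Axin2-negative-labelled ones (13 of 14 tested, led by Stab2, Eng and Kdr), and stellate markers to 0.9501 to 23.3 CPM in the Axin2-positive-labelled libraries, against 6.72 to 24.9 CPM in the Axin2-negative-labelled ones (6 of 12 tested, Reln and Ecm1 among the 3 most abundant). Each list holds no gene at 0 reads in all 6 libraries. The part of these cells in the differences of the aldehyde dehydrogenases was not tested, and fewer cells of a type cannot be told apart from less RNA per cell.

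The 5 genes whose pattern was most like that of Aldh1b1 were Inadl, Uroc1, Egln1, Agfg1 and Agk, by Pearson correlation of log2 CPM over 6 libraries (r = 0.999, 0.998, 0.998, 0.997 and 0.997). The 6 points share 3 indexes and 2 groups, and a correlation takes no account of size. Uroc1, the urocanase of histidine breakdown, had 874, 364 and 481 CPM in the Axin2-positive-labelled libraries 1, 2 and 3, against 865, 756 and 902 CPM in the Axin2-negative-labelled ones. Its log2 differences of -1.05 and -0.91 in indexes 2 and 3 were far smaller than the -6.78 and -5.91 of Aldh1b1.

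**Figure D2:**
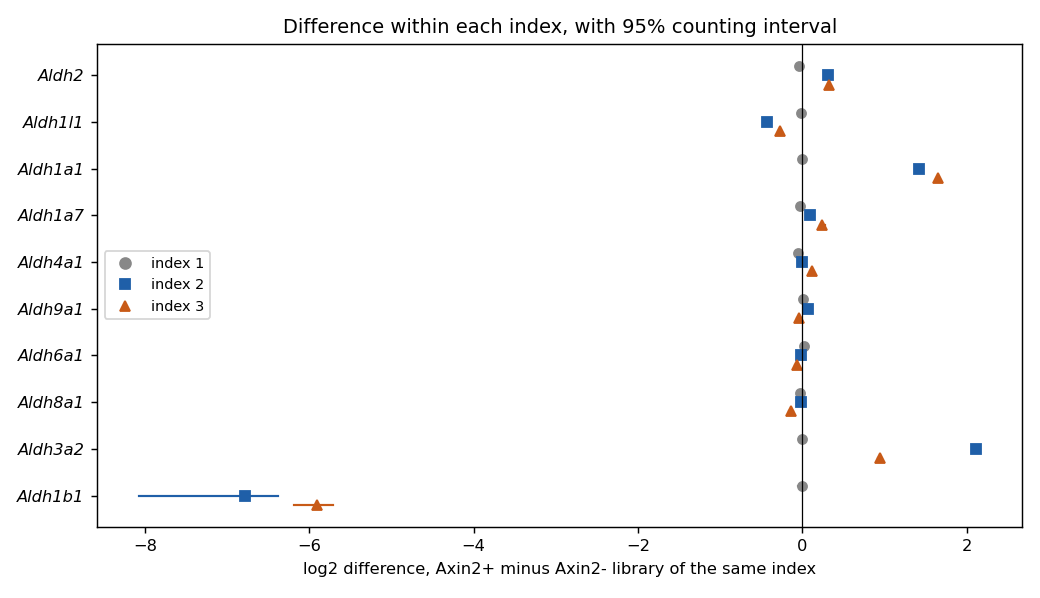
Log2 difference of each gene between the Axin2-positive-labelled library and the Axin2-negative library of the same index, with 1 marker shape per index and a line for the 95% counting interval, which is hidden by the marker where it is narrow. Markers use an offset of 0.05 CPM and intervals use none. Index 1 lies within 0.05 of 0 for all 10 genes, while Aldh1b1 lies at -6.78 and -5.91 and Aldh1a1 at 1.42 and 1.65 in indexes 2 and 3.

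Aldh2 (chromosome 5, 121566027 to 121593824, minus strand) encodes the main mitochondrial enzyme that clears acetaldehyde after alcohol intake. It had 1919, 2411 and 2329 CPM in the Axin2-positive-labelled libraries 1, 2 and 3, against 1977, 1945 and 1861 CPM in the Axin2-negative-labelled ones. The Axin2-positive-labelled libraries 2 and 3 lay above the other 4, at 1.24- and 1.25-fold of their partners. The log2 fold change over 6 libraries was 0.20 (SE 0.15) by group only and 0.20 (SE 0.13) with the index as a block. Its reads per read of Aldh1b1 were 23.9, 14641 and 1327 in the Axin2-positive-labelled libraries, against 24.4, 82.8 and 17.2 in the Axin2-negative-labelled ones. These ratios within a library need no scaling between libraries, and they differed by index as well as by label.

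Aldh1a1 (chromosome 19, 20492715 to 20643465, plus strand) encodes the cytosolic retinal dehydrogenase that makes retinoic acid. It had 667, 2885 and 1818 CPM in the Axin2-positive-labelled libraries 1, 2 and 3, against 668, 1077 and 578 CPM in the Axin2-negative-labelled ones. Both Axin2-positive-labelled libraries 2 and 3 lay above all of the other 4. The fold within an index was 0.999, 2.68 and 3.15. The log2 fold change over 6 libraries was 1.21 (SE 0.55) by group only and 1.03 (SE 0.35) with the index as a block. By group only, it was 0.68 without the Axin2-positive-labelled library 2 and 1.60 without Axin2-positive 1. Indexes 2 and 3 alone gave 1.54 (SE 0.11).

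Aldh1a7 (chromosome 19, 20692953 to 20727562, minus strand) is a rodent copy of Aldh1a1 that lies beside it on the opposite strand. It had 213, 271 and 208 CPM in the Axin2-positive-labelled libraries 1, 2 and 3, against 217, 253 and 176 CPM in the Axin2-negative-labelled ones. The groups overlap, and the folds within an index were 0.982, 1.07 and 1.18. Aldh1a1 gave 3.14, 10.7 and 8.73 reads per read of Aldh1a7 in the Axin2-positive-labelled libraries, against 3.08, 4.26 and 3.29 in the Axin2-negative-labelled ones. Of all 50-base windows of their longest coding transcripts, 6.54% of Aldh1a1 and 7.49% of Aldh1a7 were identical in the other gene, so reads from those stretches could have been split between the copies by the counting, about which the sources used here say nothing.

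The 130 bases before the start of both copies are printed because the genes stand side by side and differ in their values. Capitals mark their longest shared run, of 65 bases (RefSeq table for GRCm38.p6, chr19:20601838-20601967 on the plus strand for Aldh1a1 and chr19:20727557-20727686 on the minus strand for Aldh1a7). The RefSeq start of Aldh1a1 lies inside the longer extent that GENCODE gives the gene. For Aldh8a1 (chr10:21377170-21377299, plus strand) capitals mark the longest run shared with Aldh1a1, of 13 bases.
Aldh1a1: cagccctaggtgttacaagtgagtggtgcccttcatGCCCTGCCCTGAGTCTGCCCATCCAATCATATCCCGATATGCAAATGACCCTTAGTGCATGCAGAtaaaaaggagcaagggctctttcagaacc
Aldh1a7: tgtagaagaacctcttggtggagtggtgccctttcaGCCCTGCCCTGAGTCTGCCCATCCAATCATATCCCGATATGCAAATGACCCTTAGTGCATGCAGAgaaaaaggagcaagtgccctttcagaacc
Aldh8a1: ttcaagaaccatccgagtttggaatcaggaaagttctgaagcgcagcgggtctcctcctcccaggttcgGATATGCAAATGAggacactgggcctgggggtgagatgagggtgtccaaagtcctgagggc
Aligned with gaps, these 130 bases were 83.5% identical between Aldh1a1 and Aldh1a7, and the 120 bases before them 48.6%. The octamer ATGCAAAT lay 56 bases before the start in both copies, and 58 bases before it in Aldh8a1. It was in 3 of the 9 windows of the aldehyde dehydrogenases, and in 1.6% of all windows. Those 3 are the windows with marked runs, and the octamer lies inside each run, so they are not separate finds. The 13-base run GATATGCAAATGA was in 5 of 32851 windows, those of Aldh1a1, Aldh1a7, Aldh8a1, Gramd2 and Gm11716. CCAAT was in 7 of the 9 windows, with Aldh1b1 and Aldh8a1 the exceptions, and CAAAGTCC in that of Aldh8a1. The 13-base run was found by comparing Aldh1a1 with Aldh8a1, and it lies inside the run that Aldh1a1 shares with Aldh1a7. Its presence in these windows was thus set by how it was found, and its count supports nothing. A match in these letters is a description and shows no binding.

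**Figure D3:**
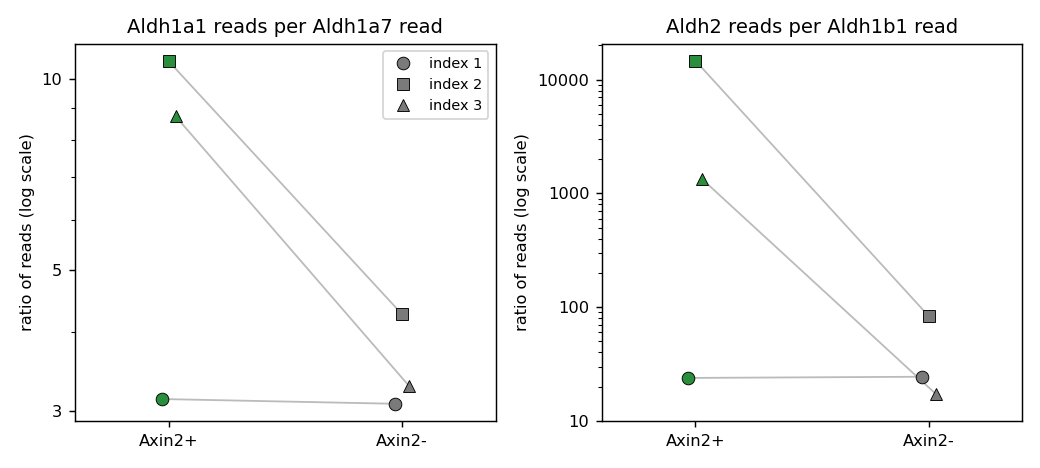
Ratio of reads between genes within each library on a log axis, Aldh1a1 to Aldh1a7 on the left and Aldh2 to Aldh1b1 on the right, with Axin2-positive-labelled libraries in green, the Axin2-negative-labelled ones in grey, and a line joining libraries of the same index. In index 1 the lines are nearly flat, at 3.14 (Axin2-positive-labelled) against 3.08 (Axin2-negative-labelled) and at 23.9 against 24.4, while in indexes 2 and 3 both ratios are higher in the Axin2-positive-labelled library.

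Aldh3a2 (chromosome 11, 61223417 to 61267464, minus strand) encodes the fatty aldehyde dehydrogenase of the endoplasmic reticulum, the enzyme that is deficient in human Sjögren-Larsson syndrome. It had 122, 235 and 595 CPM in the Axin2-positive-labelled libraries 1, 2 and 3, against 122, 54.0 and 309 CPM in the Axin2-negative-labelled ones. The groups overlap, since the Axin2-negative library of index 3 exceeds the Axin2-positive-labelled libraries 1 and 2. Within an index the fold was 0.999, 4.35 and 1.92. Libraries of 1 group spread about as widely: the highest was 4.87 times the lowest among the Axin2-positive-labelled ones and 5.73 times among the Axin2-negative-labelled ones. The log2 fold change over 6 libraries was 0.97 (SE 0.81) by group only and 1.02 (SE 0.41) with the index as a block. By group only, it was 0.14 when the Axin2-positive-labelled library 3 was left out. It was 0.56 without Axin2-negative 2 and 1.85 without Axin2-negative 3.

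Aldh1l1 (chromosome 6, 90486427 to 90600203, plus strand) encodes the cytosolic enzyme that releases formyl groups from folate as carbon dioxide. It had 1371, 1255 and 1512 CPM in the Axin2-positive-labelled libraries 1, 2 and 3, against 1388, 1685 and 1819 CPM in the Axin2-negative-labelled ones. The groups overlap through index 1, and the fold within an index was 0.988, 0.745 and 0.832. The log2 fold change over 6 libraries was -0.24 (SE 0.16) by group only and -0.24 (SE 0.13) with the index as a block. It was -0.34 (SE 0.10) in indexes 2 and 3, where it was not called. Its exons share bases with 2 annotated genes, 1 of them on the other strand. Those of Aldh2 and Aldh6a1 each share bases with 1 annotated gene on the other strand (Gm42879 and Bbof1). Whether counting used strand is unknown here.

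The other 4 genes differed little in any index. Aldh4a1 (chromosome 4, 139622866 to 139649690, plus strand), which turns glutamate semialdehyde from proline and ornithine into glutamate in mitochondria, had 402, 459 and 663 CPM in the Axin2-positive-labelled libraries 1, 2 and 3, against 415, 460 and 612 CPM in the Axin2-negative-labelled ones. The values followed the index, with index 3 highest in both groups. An annotated neighbour, Gm21969, shares 45.0% of the 50-base windows of its transcript, so its reads are uncertain.

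Aldh6a1 (chromosome 12, 84430717 to 84451004, minus strand), the methylmalonate semialdehyde dehydrogenase of valine and pyrimidine breakdown, had 513, 518 and 567 CPM in the Axin2-positive-labelled libraries, against 507, 524 and 593 CPM in the Axin2-negative-labelled ones. Aldh8a1 (chromosome 10, 21377291 to 21396585, plus strand), which oxidises a semialdehyde in the kynurenine pathway, had 310, 363 and 379 CPM in the Axin2-positive-labelled libraries, against 315, 367 and 417 CPM in the Axin2-negative-labelled ones. Aldh9a1 (chromosome 1, 167349991 to 167368532, plus strand), which oxidises an aldehyde intermediate of carnitine synthesis, had 394, 276 and 346 CPM in the Axin2-positive-labelled libraries, against 393, 263 and 355 CPM in the Axin2-negative-labelled ones. For Aldh4a1, Aldh6a1, Aldh8a1 and Aldh9a1 the log2 fold changes over 6 libraries were 0.036 (SE 0.25), -0.023 (SE 0.13), -0.063 (SE 0.16) and 0.0071 (SE 0.21) by group only. With the index as a block they were 0.023 (SE 0.097), -0.021 (SE 0.094), -0.059 (SE 0.092) and 0.012 (SE 0.091). Each was within its SE of 0, and none had a direction that held under every setting tried. In all 4, libraries of 1 group differed from each other by more than the groups did.

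**Figure D4:**
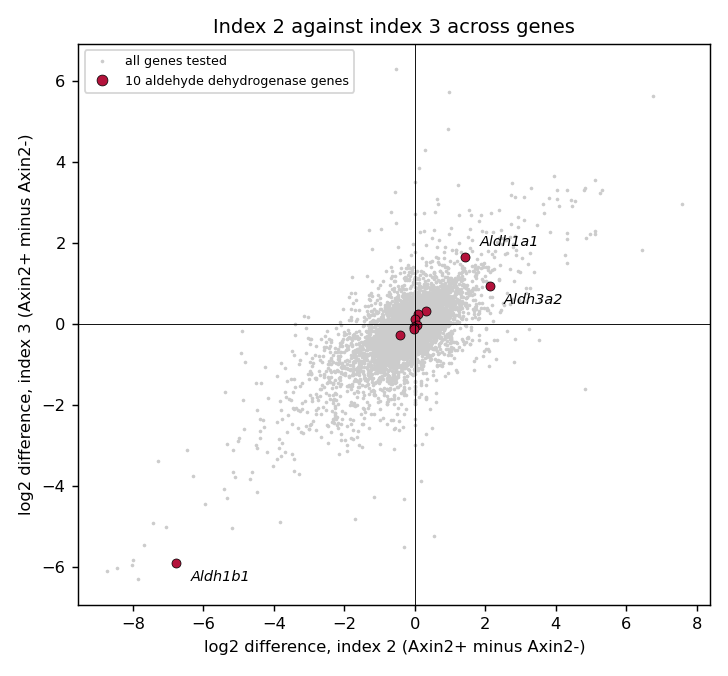
Log2 difference between the Axin2-positive-labelled library and its Axin2-negative partner in index 2 (horizontal) and index 3 (vertical), for 12343 genes tested (grey) and the 10 aldehyde dehydrogenases (red). In it, Aldh1a1 and Aldh3a2 lie to the upper right, Aldh1b1 to the lower left at -6.78 and -5.91, and the other 7 lie within 0.43 of 0 on both axes.

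Levels between genes were compared per kilobase of annotated exon (CPM per kb). Aldh2 was highest, at 433 ± 51.5 CPM per kb in the Axin2-positive-labelled libraries and 376 ± 11.6 in the Axin2-negative-labelled ones (SD, n = 3 each). Aldh1l1 followed at 305 ± 28.5 CPM per kb in the Axin2-positive-labelled libraries and 361 ± 48.9 in the Axin2-negative-labelled ones. Aldh1a1 stood at 363 ± 225 CPM per kb in the Axin2-positive-labelled libraries and 157 ± 53.9 in the Axin2-negative-labelled ones. The order of these 3 depended on the library, since Aldh1a1 at 584 exceeded Aldh2 at 470 CPM per kb in the Axin2-positive-labelled library 2.

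Aldh1a7, Aldh4a1, Aldh9a1, Aldh6a1 and Aldh8a1 came next, with means over the 6 libraries of 108, 102, 99.9, 92.8 and 81.7 CPM per kb and overlapping ranges, so this part of the order does not hold beyond the spread. Aldh3a2 stood at 56.5 ± 44.0 CPM per kb in the Axin2-positive-labelled libraries and 28.8 ± 23.5 in the Axin2-negative-labelled ones. Aldh1b1 stood at 11.9 ± 20.0 CPM per kb in the Axin2-positive-labelled libraries and 30.8 ± 18.8 in the Axin2-negative-labelled ones. Aldh1b1 had the lowest mean over the 6 libraries, at 21.4 CPM per kb against 42.7 for Aldh3a2, but the ranges of both genes overlap. Aldh3a2 was the lower of the pair in the Axin2-positive-labelled library 1 and in the Axin2-negative-labelled libraries 1 and 2. By the FPKM values of the authors' deposited table Aldh2 was again first and Aldh3a2 and Aldh1b1 last, and 3 of the 10 genes kept their place. Aldh1a7, at place 4 by CPM per kb, was at place 8 there. Aldh1a1 was at place 2 and Aldh1l1 at place 3 there, the reverse of their order by CPM per kb. Levels per kilobase depend on the length used. For Aldh1a1 it was 4937 bases over all annotated exons, against 2358 in its longest coding transcript, and for Aldh1a7 2066 by both.

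The 10 genes together took 0.563%, 0.878% and 0.869% of all reads in the Axin2-positive-labelled libraries 1, 2 and 3, against 0.572%, 0.704% and 0.698% in the Axin2-negative-labelled ones. Aldh1a1 made up 11.1%, 33.3% and 21.6% of these reads in the Axin2-positive-labelled libraries, against 10.98%, 16.2% and 8.46% in the Axin2-negative-labelled ones. Aldh2 made up 27.7% to 32.0% in the Axin2-positive-labelled libraries, against 27.3% to 32.5% in the Axin2-negative-labelled ones.

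The rest of the family was measured in the same way. Of 11 other aldehyde dehydrogenase genes listed, 10 were in the table and 7 passed the filter, of which 0 were called over 6 libraries and 0 of the 6 tested in indexes 2 and 3 alone. All 7 lay below 0 in both index 2 and index 3, as did 36.5% of all genes. Their medians were -0.37 and -0.32 there, and -0.00033 in index 1. Of the 7, Aldh1l2, Aldh3b1, Aldh3b2 and Aldh18a1 had at most 51 reads in any library, so their differences rest on few reads. Aldh7a1, which breaks down lysine, had 417, 521 and 421 CPM in the Axin2-positive-labelled libraries 1, 2 and 3, against 417, 598 and 464 CPM in the Axin2-negative-labelled ones. Aldh5a1, the succinate semialdehyde dehydrogenase of GABA breakdown, had 78.7, 62.0 and 74.4 CPM in the Axin2-positive-labelled libraries, against 76.7, 80.3 and 87.5 CPM in the Axin2-negative-labelled ones. Aldh16a1 had 65.7, 70.0 and 53.0 CPM in the Axin2-positive-labelled libraries, against 67.5, 80.8 and 66.4 CPM in the Axin2-negative-labelled ones. These 3 were the only other family members above 1 CPM.

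The folate enzyme gene Aldh1l2, the mitochondrial counterpart of Aldh1l1, had 0.134, 0.0127 and 0.0349 CPM in the Axin2-positive-labelled libraries, against 0.261, 0.174 and 0.194 CPM in the Axin2-negative-labelled ones. These values rest on 13, 1 and 3 reads in the Axin2-positive-labelled libraries, against 25, 14 and 17 reads in the Axin2-negative-labelled ones. Its groups did not overlap, which was so for 1 of the 7 genes, beside 3.77% of all genes wholly lower in the Axin2-positive-labelled libraries. Aldh18a1, which makes glutamate semialdehyde for proline synthesis, had 23, 1 and 0 reads in the Axin2-positive-labelled libraries, against 27, 10 and 14 reads in the Axin2-negative-labelled ones. Aldh3b1 stayed between 0.209 and 0.635 CPM and Aldh3b2 under 0.33 CPM in all 6 libraries. The retinal dehydrogenases Aldh1a2, which stellate cells express, and Aldh1a3 did not pass the filter and had at most 17 and 3 reads in a library. Aldh3a1 had 1 read, in the Axin2-positive-labelled library 3, and 0 in the other 5.

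Genes of the pathways that these enzymes belong to were counted from 8 lists, and over 6 libraries 0 of their members were called. The calls given next are from indexes 2 and 3 alone, where 3.43% of all genes were called higher and 4.01% lower. Among 9 tested genes of alcohol and acetaldehyde metabolism, 1 was called higher and 0 lower. The called gene was Cyp2e1, the ethanol-oxidising cytochrome, at 1697, 11162 and 11166 CPM in the Axin2-positive-labelled libraries against 1692, 2923 and 4033 CPM in the Axin2-negative-labelled ones. The alcohol dehydrogenase gene Adh4 had 91.6, 303 and 281 CPM in the Axin2-positive-labelled libraries against 88.7, 225 and 97.1 CPM in the Axin2-negative-labelled ones.

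Of 23 tested retinoid genes, 4 were called higher and 1 lower. The retinol dehydrogenase gene Rdh9 had 5.52, 201 and 433 CPM in the Axin2-positive-labelled libraries against 5.02, 11.7 and 57.4 CPM in the Axin2-negative-labelled ones. The retinoic acid hydroxylase gene Cyp26a1, a retinoic acid target, had 48.4, 61.5 and 67.7 CPM in the Axin2-positive-labelled libraries against 49.1, 44.0 and 45.7 CPM in the Axin2-negative-labelled ones. Bco2, a carotenoid-cleaving enzyme, and the aldehyde oxidase gene Aox1 were also called higher. The median of the list was -0.15 and -0.19 in indexes 2 and 3.

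Among 24 folate and one-carbon genes, Mthfd2 was called higher and Mthfd1l, Ftcd and Gldc lower. Gldc, of the glycine cleavage system, had 426, 31.3 and 89.5 CPM in the Axin2-positive-labelled libraries against 433, 360 and 330 CPM in the Axin2-negative-labelled ones. Ftcd, which passes formimino groups from histidine to folate, had 608, 297 and 297 CPM in the Axin2-positive-labelled libraries against 621, 677 and 532 CPM in the Axin2-negative-labelled ones. The list medians were -0.11 and -0.062 in indexes 2 and 3. Mthfd2 and Mthfd1l were at most 3.24 and 0.570 CPM.

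Of 8 genes around proline and glutamate semialdehyde, Oat and Prodh were called higher and 0 lower. Oat makes glutamate semialdehyde, the substrate of Aldh4a1, from ornithine, and had 42.7, 1029 and 2004 CPM in the Axin2-positive-labelled libraries against 40.9, 281 and 606 CPM in the Axin2-negative-labelled ones. Prodh, the first step of proline breakdown, had 103, 228 and 283 CPM in the Axin2-positive-labelled libraries against 107, 152 and 162 CPM in the Axin2-negative-labelled ones. Aldh4a1 itself lay at log2 differences of -0.0017 and 0.12 in indexes 2 and 3, beside 1.87 and 1.72 for Oat.

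None of 23 genes of branched-chain amino acid and propionate breakdown was called in either direction, with list medians of -0.097 and 0.081 in indexes 2 and 3. The 2 with the widest differences were Hsd17b10 (79.3, 126 and 88.5 CPM in the Axin2-positive-labelled libraries against 76.8, 90.0 and 70.3 CPM in the Axin2-negative-labelled ones) and Bckdhb (72.2, 108 and 116 CPM in the Axin2-positive-labelled libraries against 71.7, 81.8 and 89.0 CPM in the Axin2-negative-labelled ones). Of 15 kynurenine and NAD genes 0 were called, with medians of -0.10 and -0.13. There, Qprt had 114, 122 and 91.9 CPM in the Axin2-positive-labelled libraries against 110, 163 and 124 CPM in the Axin2-negative-labelled ones, and Nmnat3 7.28, 4.29 and 5.57 CPM in the Axin2-positive-labelled libraries against 7.26, 7.35 and 7.14 CPM in the Axin2-negative-labelled ones.

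Of 12 choline and carnitine genes 2 were called higher, both transporters: Slc22a5 for carnitine (14.8, 22.0 and 29.7 CPM in the Axin2-positive-labelled libraries against 13.4, 12.9 and 22.1 CPM in the Axin2-negative-labelled ones) and Slc44a1 for choline (35.8, 43.4 and 32.3 CPM in the Axin2-positive-labelled libraries against 35.9, 31.2 and 23.1 CPM in the Axin2-negative-labelled ones). Of 16 fatty aldehyde and omega-oxidation genes tested in that fit 2 were called higher, Cyp4a10 and Cyp4a14, both fatty acid hydroxylases. Cyp4a14 had 61.8, 11.8 and 987 CPM in the Axin2-positive-labelled libraries against 60.7, 1.44 and 409 CPM in the Axin2-negative-labelled ones. Genes of the Cyp4a family are close copies, so their counts are uncertain.

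**Figure D5:**
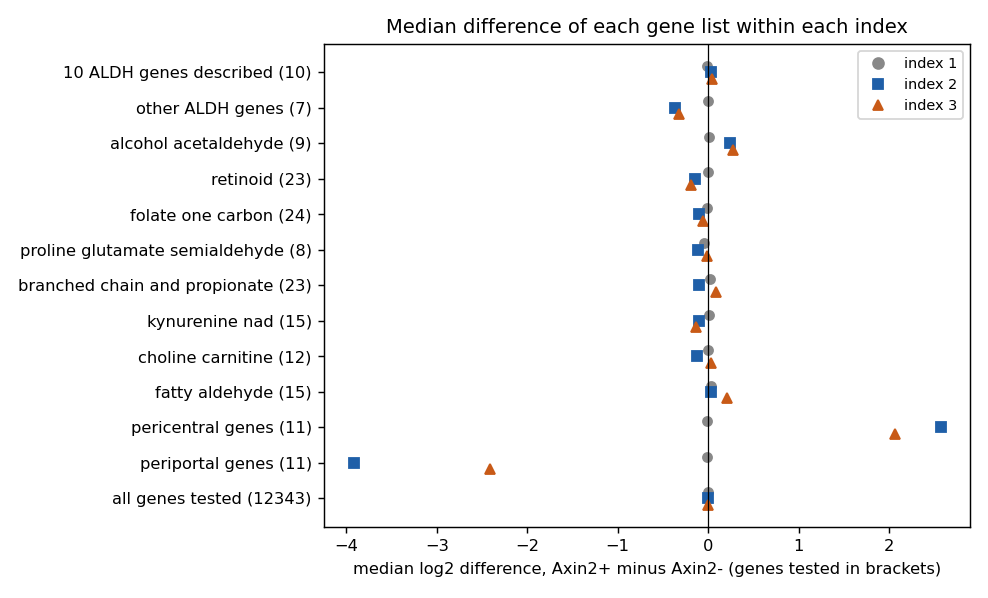
Median log2 difference between the Axin2-positive-labelled library and its Axin2-negative partner for each gene list, with 1 marker shape per index and the number of genes tested in brackets. The pericentral genes lie at 2.57 and 2.07 and the periportal genes at -3.92 and -2.41 in indexes 2 and 3, and the aldehyde dehydrogenases and pathway lists lie within 0.4 of 0.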

How the data were processed

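The first deposited table holds raw counts of reads for each gene symbol in 6 libraries. A further deposited table holds FPKM with a p-value and q-value for every transcript, 1 FPKM value per group, per the file headers. Per the submitters' processing notes, TopHat2 2.0.11 (alignment, mm10) and Cuffdiff 2.2.2 (FPKM) were used. Which program counted genes, and whether it used strand, is not given in the sources used here.

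The quasi-likelihood test of edgeR 4.0.16 (R 4.3.3) was run on the counts (default filter, TMM scaling, group only, threshold 0.05). It was checked on simulated counts that held no effect of the index, so the check does not cover the index effects of these data. SE is the log2 fold change over the root of F. Log2 differences within an index use an offset of 0.05 CPM, while folds and counting intervals use none. DESeq2 1.42.0, limma 3.58.1 (voom), other scalings, no filter, the index as a block and leaving out libraries were alternatives. Deviations from group means correlated at 0.68, 0.82 and 0.75 between libraries of the same index, so the index pairs them.

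The members and gene lists were chosen with earlier results of these data known. Named genes were all family members, list genes called in indexes 2 and 3, with up to 2 per list that had the widest mean difference at a mean of at least 1 CPM, the 3 most abundant markers per cell type, and the 5 genes most like Aldh1b1. Gene positions are from GENCODE M21 (GRCm38), and all family loci of the authors' table overlapped them. Intervals cover counting error only. PCR copies were not removed here. Some genes that this rule names are not reported here.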

Additional observations from a re-analysis of the deposited data

How the results depend on the processing

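Over 6 libraries 0 genes were called, and the count stayed 0 with DESeq2, limma-voom, upper-quartile scaling, total counts, no filter and the replicate block. Leaving out single libraries gave 0 to 1 genes higher and 0 to 5 lower, the highest counts without Axin2-positive-labelled library 1. Leaving out both libraries of index 1, with the replicate block, gave 425 higher and 497 lower, among them 2 and 1 of the 10 aldehyde dehydrogenases and 12 and 4 pathway genes. Against a fold of 1.5 these were 98 and 110, 1 and 1, and 3 and 0. Of the 140 log2 fold changes of the 10 genes under alternatives, 121 kept direction and side of the threshold, 5 became called, all with index 1 left out, and 14 changed sign. The direction was never reversed for Aldh1a1, Aldh1b1, Aldh1l1, Aldh2 and Aldh3a2.

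The cause of the changes of sign was not tested. Aldh9a1 was at -0.012 with upper-quartile scaling and -0.0053 with total counts, and Aldh3b1 at 0.13 with limma-voom and 0.086 with the replicate block. Leaving out single libraries gave -0.032 to 0.23 for Aldh1a7, -0.20 to 0.22 for Aldh4a1, -0.071 to 0.051 for Aldh6a1, -0.16 to 0.043 for Aldh8a1, -0.14 to 0.13 for Aldh9a1, -0.32 to 0.49 for Aldh3b1, -3.26 to 0.38 for Aldh3b2 and -0.24 to 0.040 for Aldh7a1. With an offset of 0.5 CPM, 28 of 30 within-index differences moved by less than their counting interval, and Aldh1b1 was at -5.17 and -5.59 in indexes 2 and 3. The authors' FPKM left 3 of 10 genes at their rank. With 3 libraries a group, differences such as those of Aldh4a1 or Aldh9a1 were not detectable, which does not show that these genes are alike in both groups.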

Other observations

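Aldh3a2 and the fatty acid hydroxylase genes Cyp4a10 and Cyp4a14, known in mouse liver as targets of the nuclear receptor PPARα, had the same order of indexes in the Axin2-negative-labelled libraries. Aldh3a2 was at 122, 54.0 and 309 CPM in indexes 1, 2 and 3, Cyp4a10 at 211, 8.31 and 526 CPM, and Cyp4a14 at 60.7, 1.44 and 409 CPM. In the Axin2-positive-labelled libraries, Cyp4a10 was at 214, 43.4 and 1115 CPM, and Aldh3a2 departed from that order, with 235 CPM in index 2 above 122 CPM in index 1. Cyp4a12a, a male-biased gene of mouse liver, was at 0.412, 548 and 5.23 CPM in the Axin2-positive-labelled libraries and 0.397, 288 and 0.137 CPM in the Axin2-negative-labelled ones. The part of index or sex in the levels of Aldh3a2 was not tested.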
